A study of Mus musculus with 8 samples.

Results

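The proteins of the spliceosomal small nuclear ribonucleoproteins (snRNPs), of the U4/U6.U5 tri-snRNP and of the factors that act with them are described here at the level of their mRNA in mouse liver. The members are 56 genes listed by symbol for their place in these complexes, and they were read from the deposited gene table by symbol, without a threshold on any measured value. The table holds 57 entries for these 56 symbols out of 55385 gene identifiers, because *Txnl4a* labels 2 identifiers. One of them is *Txnl4a* in the GENCODE annotation, and the other, named *Gm16286* there, overlaps it on the same strand. All 57 entries passed the filter on low values, which asked for an FPKM of 0.5 or more in 4 or more livers and which 14340 genes passed in all. FPKM is the number of fragments per kilobase of exon, scaled to the counted reads of the library.

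Liver RNA was sequenced from 4 *Usp39*-HKO mice and from 4 control mice, with 1 library per mouse. All were males on a C57BL/6J background, aged 5 weeks and fasted 16 h, and the controls were littermates. In *Usp39*-HKO mice, loxP sites flanked exon 2 of *Usp39* on both alleles (*Usp39* fl/fl) and Cre was driven by the albumin promoter, a promoter of hepatocytes, and the extent of the deletion in other liver cells was not measured here. The controls are labelled wild type, and whether they carried a floxed allele or Cre was not given in the sources used here. Because whole liver was sequenced, fewer cells of a type and less RNA per cell cannot be told apart.

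The spliceosome removes introns in a cycle of assembly and remodelling. The U1 snRNP binds the start of an intron and the U2 snRNP its branch site, and the preassembled tri-snRNP then joins to form the B complex, from which U1 and U4 leave as helicases and the Prp19 complex turn it into an active enzyme. Each U1, U2, U4 and U5 snRNA carries a ring of Sm proteins and U6 carries a ring of LSm proteins. Usp39 is a ubiquitin protease-like protein without protease activity that belongs to the tri-snRNP and acts in its entry into the spliceosome.

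Exon 2 of *Usp39*, the deleted exon, is the sequence that defines the *Usp39*-HKO mice. It lies on the minus strand at chr6:72342899-72342968 (GRCm38, the same assembly as mm10), within the coding sequence, and is 70 bases long, so it does not hold a whole number of codons. The full transcript has 13 exons and 564 codons. Joining exon 1 to exon 3 gives a reading frame that stops after 123 codons, of which the first 88 come from exon 1, and the stop lies 104 bases into exon 3. Exon 2 is printed in capitals, between the last 15 bases of exon 1 and the first 15 bases of exon 3, from the GENCODE vM21 transcript in the direction of transcription.
*Usp39* exon 2: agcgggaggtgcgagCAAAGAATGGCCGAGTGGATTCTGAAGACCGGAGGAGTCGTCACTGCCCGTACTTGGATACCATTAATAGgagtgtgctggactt
The counts were made per gene over all exons, so they do not separate transcripts with exon 2 from transcripts without it.

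The libraries held 8589636 to 10418450 counts on genes. Levels are given as the deposited FPKM, which divides by the total of the library. Fold changes are log2 values from the quasi-likelihood test of edgeR on TMM-scaled counts, each with its standard error (SE) and a Benjamini-Hochberg adjusted p over the 14340 genes. TMM factors lay between 0.911 and 0.940 in controls and between 1.01 and 1.19 in *Usp39*-HKO livers. Without such scaling the median of all genes tested stood at 0.24 on the log2 scale, higher in *Usp39*-HKO livers, and TMM scaling moved this median to -0.001. FPKM therefore runs higher in *Usp39*-HKO livers for most genes, and a fold change from the fit can be lower than the ratio of FPKM means. Control 2 stood apart from the other controls. It lay at -23.98 on the first principal component of all genes tested, against -37.74, -41.67 and -40.01 in controls 1, 3 and 4, and it was the highest control in FPKM for 30 of the 57 entries (52.6%) against 32.1% of all genes tested. Control 4 stood apart in another way, with 7 pancreatic acinar markers that summed to 561 FPKM against 0.405 to 2.45 in the other 7 livers. Where the call of a member changed without control 2 or without control 4, this is stated.

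Of the 57 entries, 7 (12.3%) differed between genotypes at an adjusted p under 0.05, where 22.5% of all genes tested did. *Prpf3*, *Lsm2* and *Sf3b4* were higher in *Usp39*-HKO livers, and *Dhx16*, *Prpf6*, *Usp39* and *Snrnp70* were lower. Across all genes tested, 10.9% were called higher and 11.6% lower. At this threshold the share of members called thus lay below the share of all genes called. At an unadjusted p under 0.05, 20 of the 57 entries passed (13 higher, 7 lower). Of the 14340 genes tested, 5065 did (2488 higher, 2577 lower). Without control 4, 3 entries were called (*Dhx16*, *Prpf6* and *Prpf3*), where 14.2% of all genes were, while the fold changes of the 4 that lost their call were -0.41 for *Usp39*, -0.47 for *Snrnp70*, 0.44 for *Lsm2* and 0.43 for *Sf3b4* (adjusted p = 0.0547, 0.0598, 0.0694 and 0.0675). Calls also fell without control 1, control 3, *Usp39*-HKO 3 or *Usp39*-HKO 4, to 5, 5, 4 and 4 entries (15.8%, 13.5%, 17.3% and 14.6% of all genes). They rose without control 2, *Usp39*-HKO 1 or *Usp39*-HKO 2, to 13, 10 and 10 entries (22.7%, 24.5% and 21.4% of all genes). Fold changes of the entries ran from -0.72 to 0.99 with a median of 0.10 (all genes -8.95 to 9.16, median -0.001), and 41 of them (71.9%) were positive against 49.9% of all genes. A further 10 of the 57 entries had an adjusted p between 0.05 and 0.1, against 1138 of the 14340 genes tested. The study's cutoff, used there with DESeq2, was a raw p under 0.05 together with a log2 change past 0.5 in size. Applied to the edgeR fit used here, 6 entries passed it, where 21.7% of all genes tested did.

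**Figure D1:**
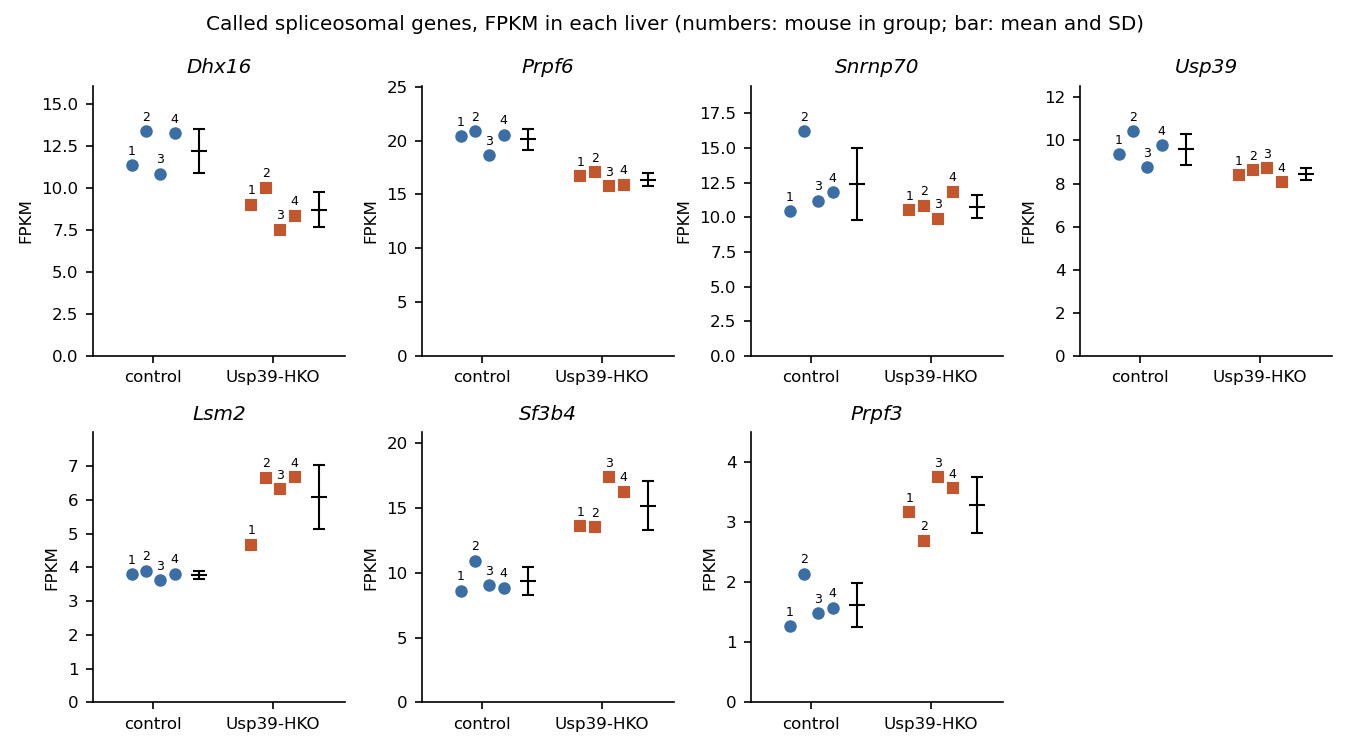
FPKM of the 7 called genes in each liver, with controls as circles and *Usp39*-HKO livers as squares. The small numbers name the mouse within its group and the black bar is the mean and SD of 4 mice. The groups are apart for every gene except *Snrnp70*, where control 2 at 16.2 FPKM lies above 7 other livers that span 9.90 to 11.8.

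Among the proteins particular to the assembled tri-snRNP, *Usp39* was the one called. Its FPKM was 9.36, 10.4, 8.76 and 9.78 in controls 1 to 4 and 8.38, 8.62, 8.70 and 8.07 in *Usp39*-HKO livers 1 to 4. The highest *Usp39*-HKO value lay just under the lowest control value. The mean fell from 9.58 ± 0.71 (SD, n = 4 mice) to 8.44 ± 0.29 (SD, n = 4 mice), a log2 fold change of -0.41 (SE 0.11, adjusted p = 0.0212). *Sart1*, which encodes a tri-snRNP protein that helps to hold its parts together, had 3.86, 6.29, 4.54 and 5.53 FPKM in controls and 6.94, 5.43, 7.41 and 5.47 in *Usp39*-HKO livers. The groups overlapped, and its log2 fold change was 0.10 (SE 0.18, adjusted p = 0.745). *Snrnp27*, another tri-snRNP protein, had means of 6.497 ± 0.57 and 8.07 ± 0.62 FPKM in controls and *Usp39*-HKO livers (SD, n = 4 mice each), with a log2 fold change of 0.08 (adjusted p = 0.711).

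In the U4/U6 snRNP, 1 of 5 genes was called and all 5 fold changes were positive. *Prpf3*, whose product binds the paired U4 and U6 snRNAs, had 1.27, 2.14, 1.48 and 1.58 FPKM in controls and 3.16, 2.69, 3.74 and 3.56 in *Usp39*-HKO livers. Every *Usp39*-HKO value lay above every control value, and control 2 was again the highest control. The mean rose from 1.62 ± 0.37 (SD, n = 4 mice) to 3.29 ± 0.47 (SD, n = 4 mice), a log2 fold change of 0.79 (SE 0.17, adjusted p = 0.00917). Its partner in the same subcomplex, *Prpf4*, had a narrow range in controls (3.20 to 3.34 FPKM) and 4.36 to 4.95 in *Usp39*-HKO livers, yet its log2 fold change after TMM scaling was 0.25 (SE 0.11, adjusted p = 0.119). *Ppih*, the cyclophilin of the same subcomplex, had only 14 to 35 counts per mouse and a log2 fold change of 0.38 (adjusted p = 0.342). *Prpf31*, which clamps the U4 snRNA, and *Sart3*, which rejoins U4 with U6 after splicing, had fold changes of 0.04 and 0.07.

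The U5 snRNP held 9 entries, of which *Prpf6* was called. Its product is the scaffold that bridges U5 to U4/U6. Its FPKM was 20.4, 20.9, 18.6 and 20.5 in controls and 16.7, 17.1, 15.8 and 15.9 in *Usp39*-HKO livers. The groups did not overlap and the spread within each was narrow, with means of 20.1 ± 1.0 (SD, n = 4 mice) and 16.4 ± 0.62 (SD, n = 4 mice). The log2 fold change was -0.53 (SE 0.09, adjusted p = 0.00324). *Prpf8*, the core of the catalytic centre and the member with the highest mean FPKM (42.5), had 45.2, 37.2, 47.7 and 46.5 FPKM in controls and 37.0, 46.8, 38.7 and 41.1 in *Usp39*-HKO livers. The groups overlapped, because control 2 was low and *Usp39*-HKO 2 was high. Its log2 fold change was -0.35 (SE 0.12, adjusted p = 0.0586), and -0.42 with an adjusted p of 0.0261 without control 2.

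The other U5 genes did not pass the test. *Eftud2*, the GTPase of U5, had 4.54 to 4.92 FPKM in controls and 5.75 to 7.38 in *Usp39*-HKO livers, a log2 fold change of 0.26 (SE 0.10, adjusted p = 0.0784), and 26.9% of its exon bases overlap a gene on the opposite strand. *Snrnp200*, the helicase that unwinds U4 from U6, had a log2 fold change of -0.05 (adjusted p = 0.721). *Txnl4a*, a small thioredoxin-like protein of U5, had 1.81, 2.13, 2.12 and 1.77 FPKM in controls and 1.55, 3.35, 3.63 and 2.95 in *Usp39*-HKO livers, where *Usp39*-HKO 1 lay below every control. Its log2 fold change was 0.31 (SE 0.22, adjusted p = 0.347), and 0.52 (adjusted p = 0.0369) without *Usp39*-HKO 1, while the overlapping *Gm16286* entry, with 18.6 ± 2.2 FPKM (SD, n = 4 mice) in controls, was at -0.01 (SE 0.11). How the reads of the shared exons were divided between these entries was not given in the sources used here. *Cd2bp2*, *Snrnp40* and *Ddx23*, the last a helicase of the tri-snRNP, had fold changes between 0.06 and 0.24.

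None of the 3 genes of the B complex was called. *Prpf38a* had 2.67, 2.40, 2.53 and 2.65 FPKM in controls and 3.15, 3.59, 2.91 and 4.02 in *Usp39*-HKO livers, without overlap, but its log2 fold change after scaling was 0.18 (SE 0.12, adjusted p = 0.315). *Prpf38b* had 10.2, 9.13, 9.27 and 9.21 FPKM in controls and 10.8, 8.497, 8.93 and 11.2 in *Usp39*-HKO livers, with full overlap and a log2 fold change of -0.18 (SE 0.11, adjusted p = 0.281). *Prpf4b*, a kinase that phosphorylates tri-snRNP proteins, was at -0.06.

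**Figure D2:**
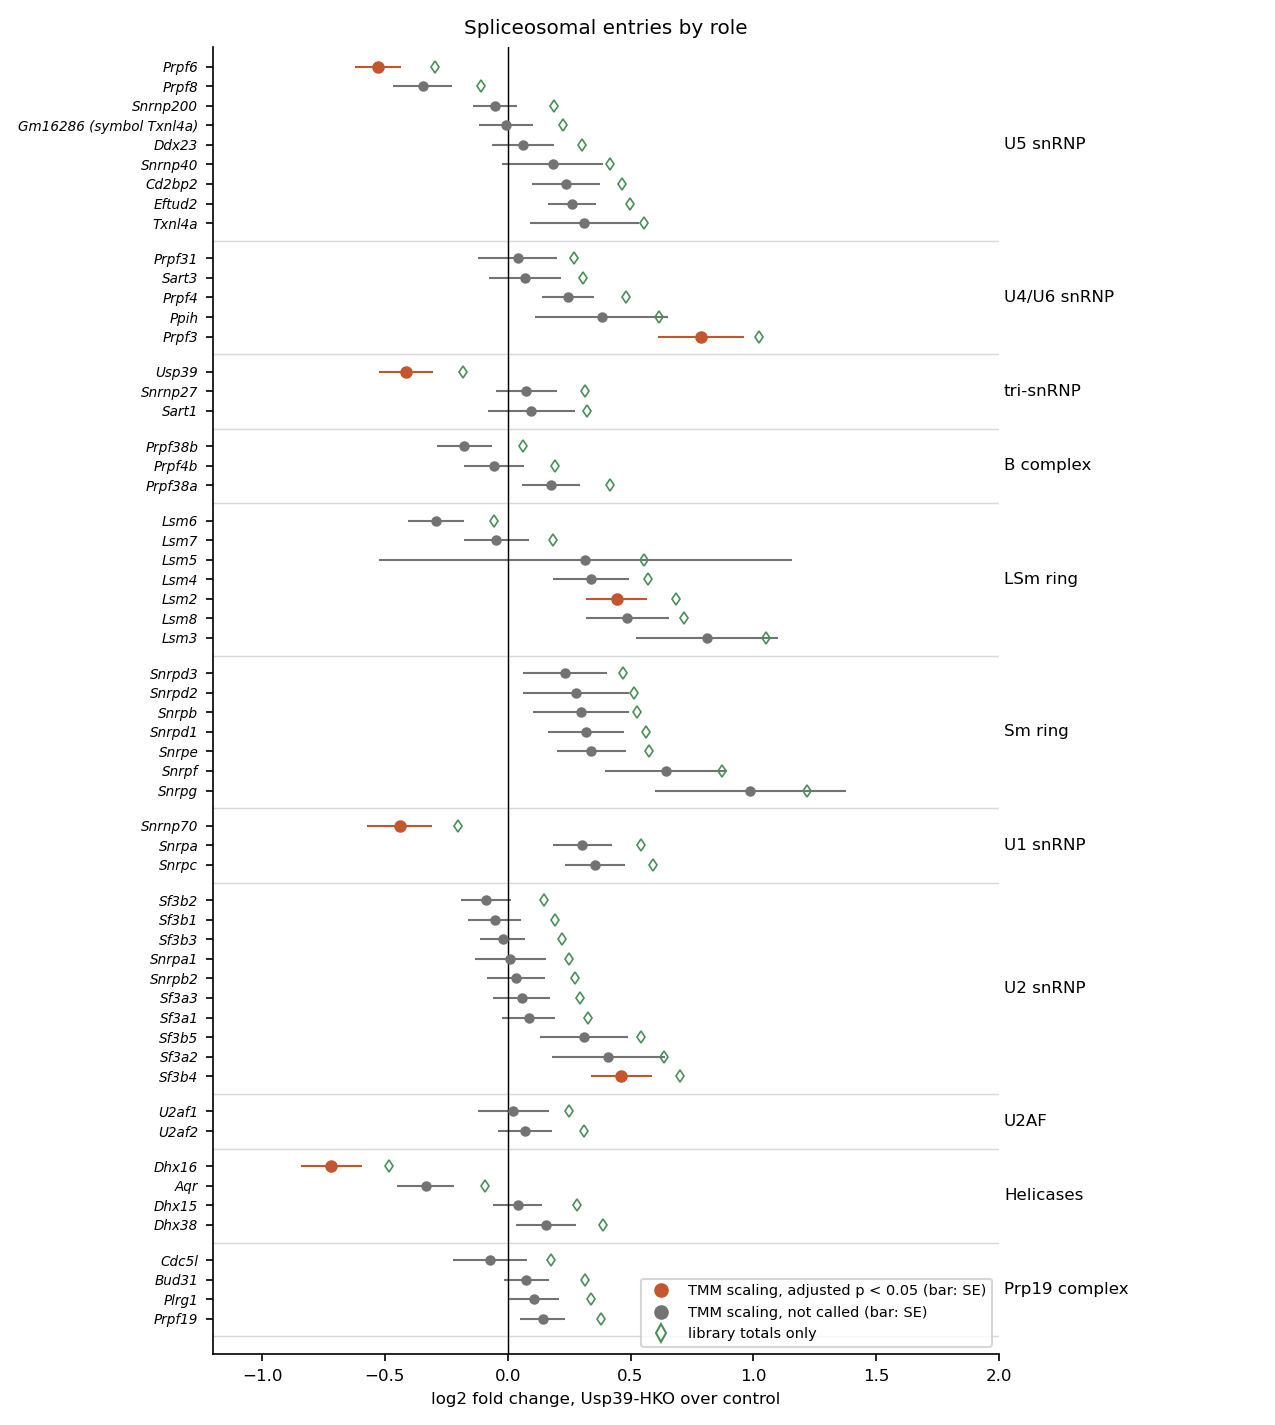
Log2 fold change (*Usp39*-HKO over control) of the 57 entries, grouped by role. Circles are TMM-scaled values with their SE, coloured where the adjusted p is under 0.05, and open diamonds are the values with library totals alone. The called genes run from *Dhx16* at -0.72 to *Prpf3* at 0.79, all 7 Sm genes lie above 0, and the diamonds sit to the right of the circles throughout.

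All 7 genes of the Sm ring had positive fold changes, from 0.23 to 0.99 with a median of 0.32, and none passed the test. At an unadjusted p under 0.05, 3 of the 7 were higher, where 17.4% of all genes were, and without TMM scaling 5 of 7 were called higher, where 24.6% of all genes were. *Snrpg* had the largest fold change of any member. Its FPKM was 1.94, 7.52, 2.45 and 2.201 in controls and 8.52, 6.43, 10.8 and 7.26 in *Usp39*-HKO livers. Control 2 lay among the *Usp39*-HKO livers and the other 3 controls lay far below. The log2 fold change was 0.99 (SE 0.39, adjusted p = 0.0903) and 1.68 (adjusted p = 0.00192) without control 2. *Snrpb*, which encodes the ring protein SmB, showed the same control 2. Its FPKM was 20.9, 34.4, 19.4 and 21.6 in controls and 38.9, 26.9, 39.2 and 33.9 in *Usp39*-HKO livers. Its log2 fold change was 0.30 (SE 0.19, adjusted p = 0.300), and 0.52 (adjusted p = 0.0364) without control 2.

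Reads of *Snrpg* could be divided with a second gene, *Gm8186*, since 21.9% of the *Snrpg* transcript occurs in other genes in stretches of at least 150 bases at 97% identity or more. *Snrpg* had 28, 117, 33 and 36 counts in controls and 130, 103, 161 and 108 in *Usp39*-HKO livers. *Gm8186* had 73, 39, 57 and 53 counts in controls and 8, 29, 18 and 51 in *Usp39*-HKO livers, so it was low in several livers where *Snrpg* was high. Summed, they gave 101, 156, 90 and 89 counts in controls and 138, 132, 179 and 159 in *Usp39*-HKO livers, and control 2 still lay among the *Usp39*-HKO livers. A fit on counts summed with those of such copies, chosen after seeing the data, gave *Snrpg* a log2 fold change of 0.22 (SE 0.19, adjusted p = 0.465) in place of 0.99. The same step took *Snrpe* from 0.34 to 0.21 and *Snrpf* from 0.64 to 0.49, and it changed none of the 7 calls. *Snrpf* had 15 to 54 counts per mouse, and 85.4% of its exon bases overlap genes on the opposite strand.

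In the LSm ring of U6, 1 of 7 genes was called. *Lsm2* had 3.80, 3.90, 3.62 and 3.81 FPKM in controls and 4.67, 6.66, 6.32 and 6.66 in *Usp39*-HKO livers. The controls were nearly equal and every *Usp39*-HKO value lay above them, with *Usp39*-HKO 1 the lowest of its group. The mean rose from 3.78 ± 0.12 (SD, n = 4 mice) to 6.08 ± 0.95 (SD, n = 4 mice), a log2 fold change of 0.44 (SE 0.12, adjusted p = 0.0260). *Lsm3* had a larger log2 fold change, 0.81 (SE 0.29, adjusted p = 0.0637), on few counts (21 to 67 per mouse). Its FPKM was 0.950, 0.769, 1.78 and 0.732 in controls and 1.61, 2.39, 2.40 and 2.30 in *Usp39*-HKO livers, and control 3 lay above *Usp39*-HKO 1. Without control 3 the log2 fold change of *Lsm3* was 1.18 (adjusted p = 0.0132), without *Usp39*-HKO 1 it was 0.93 (adjusted p = 0.0423), and DESeq2 gave 0.82 (adjusted p = 0.0385).

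The remaining LSm genes varied in direction. *Lsm6* had 4.09, 5.20, 4.54 and 4.88 FPKM in controls and 4.62, 4.33, 4.27 and 4.76 in *Usp39*-HKO livers, overlapping, with a log2 fold change of -0.29 (SE 0.12, adjusted p = 0.0909). *Lsm8*, the member that makes this ring nuclear, was at 0.49 (SE 0.17, adjusted p = 0.0579) without overlap in FPKM. *Lsm4* was at 0.34 (SE 0.15, adjusted p = 0.140), and at 0.51 (adjusted p = 0.0123) without control 2, whose 26.4 FPKM stood above the other controls (17.1 to 17.9). *Lsm7* was at -0.05. *Lsm5* could not be measured well, with 1 to 43 counts per mouse and 56.5% of its transcript shared with other genes, and its log2 fold change of 0.32 had an SE of 0.84.

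**Figure D3:**
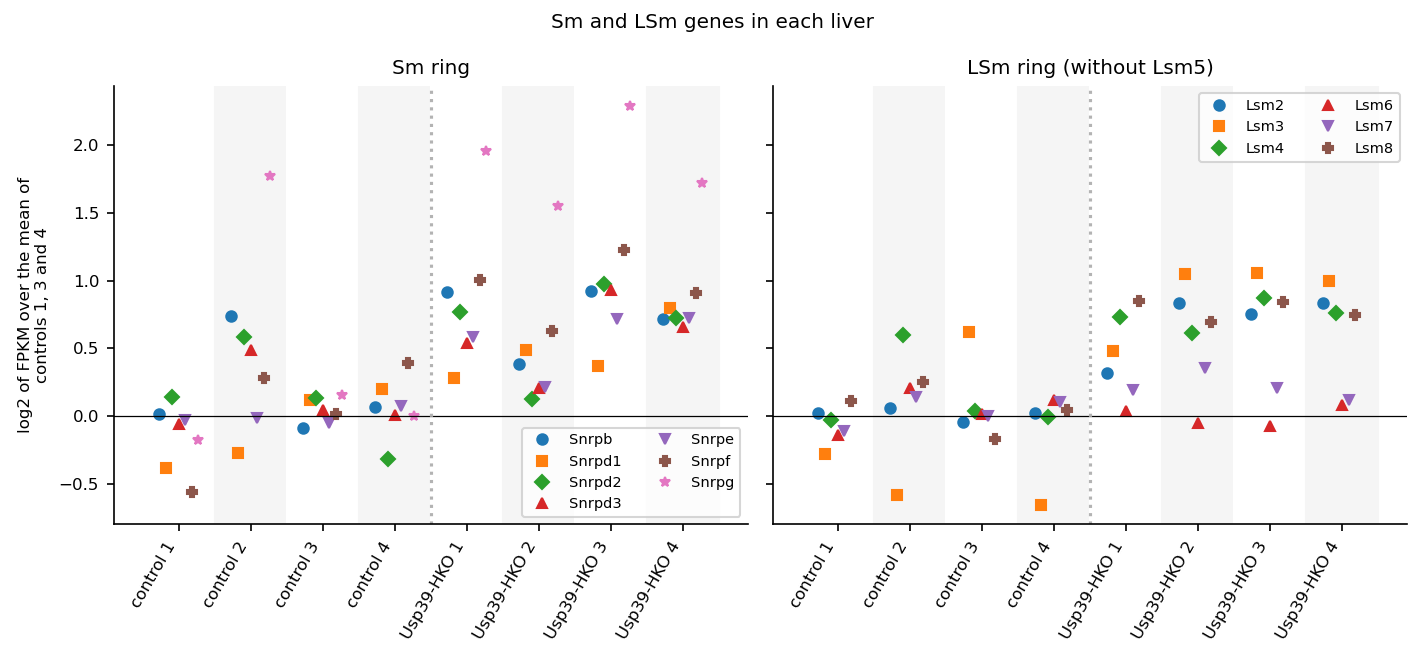
FPKM of the Sm genes (left) and of the LSm genes other than *Lsm5* (right) in each liver, as log2 of the ratio to the mean of controls 1, 3 and 4. For *Snrpg*, *Snrpb*, *Snrpd2*, *Snrpd3* and *Lsm4*, control 2 lies well above the other controls and nearer to the *Usp39*-HKO livers.

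Over the 7 Sm genes, the summed FPKM was 49.9, 76.2, 51.98 and 53.9 in controls and 91.8, 69.0, 101.3 and 89.8 in *Usp39*-HKO livers, so control 2 exceeded *Usp39*-HKO 2. Without control 2, the median log2 fold change of the 14 Sm and LSm entries went from 0.33 to 0.45, and 5 were called higher (*Lsm2*, *Lsm4*, *Lsm8*, *Snrpb* and *Snrpg*), where 11.1% of all genes were called higher and 11.6% lower in that fit. Control 2 also had the highest summed FPKM of 7 dividing-cell markers among controls, 8.02 against 3.62 to 4.70, while *Usp39*-HKO livers had 18.9 to 36.9, and 6 of 6 tested markers of that list were called higher. Its levels relative to the other controls also followed base composition, with a median log2 ratio of -0.19 for genes under 45% GC in the transcript, -0.05 for genes of 45 to 52% GC and 0.13 for genes over 52% GC. The part of these measures in the Sm and LSm values was not tested.

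In the U1 snRNP, *Snrnp70* was called lower while the other 2 genes had positive fold changes. *Snrnp70* encodes the protein that binds the first stem-loop of U1 snRNA. Its FPKM was 10.4, 16.2, 11.2 and 11.8 in controls and 10.52, 10.8, 9.90 and 11.8 in *Usp39*-HKO livers. The FPKM values overlapped and only control 2 stood clear of the rest, while after TMM scaling every *Usp39*-HKO value lay below every control. The log2 fold change was -0.44 (SE 0.13, adjusted p = 0.0340), and without control 2 it was -0.28 (adjusted p = 0.0455). The annotation gives this gene 17 transcripts, 9 of them with a retained intron, and gene counts do not separate them. *Snrpc*, whose product stabilises the pairing of U1 with the splice site, had 3.07, 3.42, 2.91 and 3.24 FPKM in controls and 4.17, 4.53, 5.64 and 4.67 in *Usp39*-HKO livers, without overlap and with a log2 fold change of 0.35 (SE 0.12, adjusted p = 0.0567). *Snrpa*, whose product binds another stem-loop of U1, was at 0.30 (SE 0.12, adjusted p = 0.0938).

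The 10 genes of the U2 snRNP had a median fold change of 0.05, and *Sf3b4* was called. It encodes a subunit of SF3B, the complex that holds the branch site. Its FPKM was 8.61, 10.9, 9.05 and 8.84 in controls and 13.6, 13.5, 17.4 and 16.2 in *Usp39*-HKO livers, with no overlap. The mean rose from 9.35 ± 1.1 (SD, n = 4 mice) to 15.2 ± 1.9 (SD, n = 4 mice), a log2 fold change of 0.46 (SE 0.12, adjusted p = 0.0215). The transcript shares 66.6% of its bases with *Gm7935*, which had 1 to 12 counts per mouse against 168 to 358 for *Sf3b4*, and summing them left the log2 fold change at 0.47. *Sf3b2* had the lowest fold change of the group, -0.09 (SE 0.10, adjusted p = 0.578), with 17.4, 17.6, 18.3 and 18.4 FPKM in controls and 19.9, 16.8, 21.4 and 21.1 in *Usp39*-HKO livers. *Sf3b1*, which encases the branch-site helix, and *Sf3b3* were at -0.05 and -0.02. *Sf3a2* was at 0.41 with an SE of 0.23 (adjusted p = 0.228), and control 2 (9.26 FPKM) again lay above the other controls, at 4.86 to 6.57. Without control 2 the log2 fold change of *Sf3a2* was 0.64 (adjusted p = 0.0533). The U2AF pair, which reads the end of the intron, did not pass: *U2af2* had 14.2, 17.4, 14.6 and 14.0 FPKM in controls and 16.9, 16.2, 20.03 and 21.5 in *Usp39*-HKO livers and a log2 fold change of 0.07 (SE 0.11, adjusted p = 0.689), and *U2af1* was at 0.02.

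Among the helicases, *Dhx16* had the largest fall of any member. Its product, Prp2 in yeast, remodels the activated spliceosome before the first catalytic step. Its FPKM was 11.4, 13.4, 10.9 and 13.3 in controls and 8.998, 10.01, 7.53 and 8.35 in *Usp39*-HKO livers. The groups did not overlap. The mean fell from 12.2 ± 1.3 (SD, n = 4 mice) to 8.72 ± 1.1 (SD, n = 4 mice), a ratio of 0.71 in FPKM and a log2 fold change of -0.72 (SE 0.12, adjusted p = 0.00291). *Aqr*, an intron-binding helicase, was at -0.33 (SE 0.12, adjusted p = 0.0608), and at -0.38 (adjusted p = 0.0485) without control 2. *Dhx38*, which acts between the catalytic steps, had 5.79, 7.94, 6.33 and 6.86 FPKM in controls and 8.70, 8.67, 9.49 and 8.28 in *Usp39*-HKO livers, apart in FPKM, with a log2 fold change of 0.15 (SE 0.12, adjusted p = 0.403). *Dhx15*, which takes the used spliceosome apart, was at 0.04.

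None of the 4 genes of the Prp19 complex and its partners was called. *Prpf19*, the ubiquitin ligase that names the complex, had 17.7, 16.0, 16.0 and 17.0 FPKM in controls and 19.8, 21.8, 22.8 and 22.2 in *Usp39*-HKO livers, apart in FPKM. Its log2 fold change was 0.14 (SE 0.09, adjusted p = 0.294). *Cdc5l* had 6.502, 5.23, 7.09 and 6.81 FPKM in controls and 6.21, 7.43, 5.68 and 9.59 in *Usp39*-HKO livers and a log2 fold change of -0.07 (SE 0.15, adjusted p = 0.776), with 79.6% of its transcript shared with other genes. *Plrg1* and *Bud31* were at 0.11 and 0.07.

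How many members differed depended on the scaling. In deposited FPKM, all *Usp39*-HKO values lay above all controls for 19 entries and below them for 3, where 23.9% and 4.81% of all genes tested did so. After division of FPKM by the TMM factors, the counts were 8 higher and 5 lower, where 11.8% and 13.0% of all genes did so. In edgeR with library totals alone, 23 entries were called higher and 2 lower, where 24.6% and 4.85% of all genes were. Among all genes, limma on log2(FPKM + 1) called 25.6%, upper quartile scaling 22.4% and limma voom with sample quality weights 29.2%, against 22 (38.6%), 11 (19.3%) and 13 (22.8%) of the 57 entries. With library totals alone, *Usp39* and *Snrnp70* were not called, and *Dhx16* and *Prpf6* remained lower. Relative to the median of all genes, the median fold change of the entries was 0.10 with TMM scaling and 0.09 with library totals alone.

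**Figure D4:**
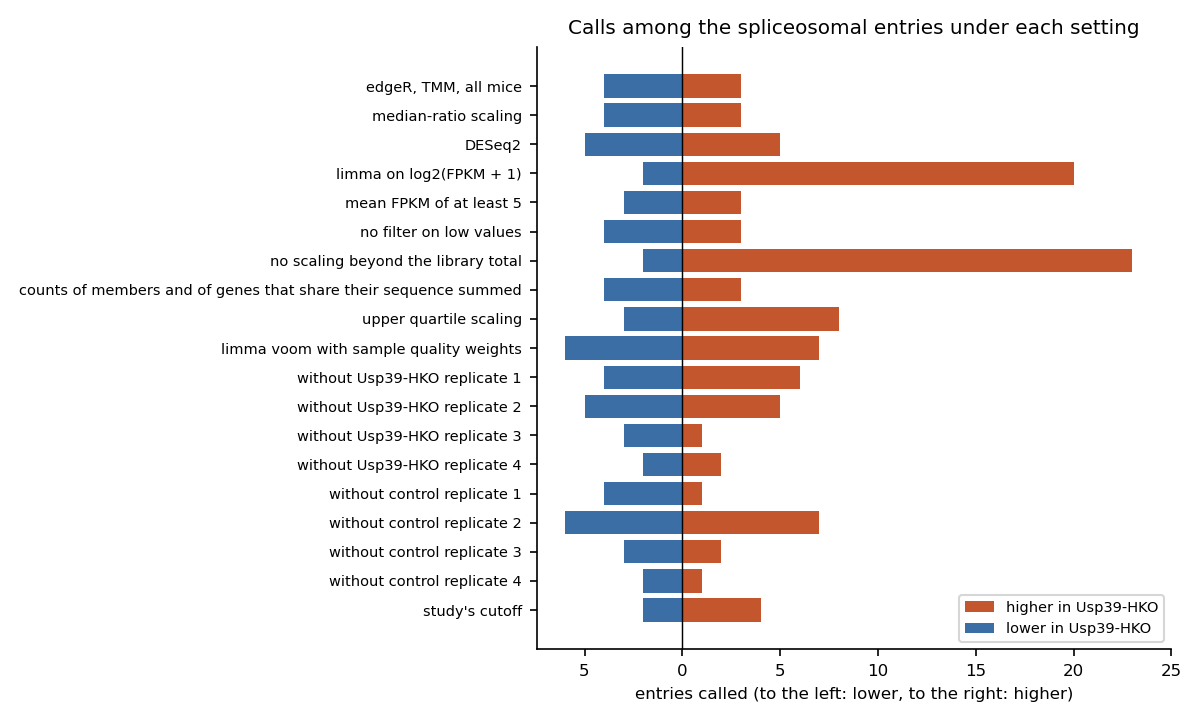
Number of the 57 entries called higher (to the right) or lower (to the left) in *Usp39*-HKO livers under each setting tried. The other settings give 3 to 13 calls, whereas library totals alone and limma on log2(FPKM + 1), both without a scaling step, give 25 and 22 calls, nearly all higher.

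The members' fold changes varied with exon length. Merged exons ran from 792 bases (*Lsm5*) to 11805 bases (*Aqr*). The 13 entries under 2500 bases had a median log2 fold change of 0.32, the 23 of 2500 to 5000 bases 0.15, and the 21 over 5000 bases 0.04, while all genes tested had medians of 0.00, 0.03 and -0.02 in these classes. The short class holds 8 Sm or LSm genes, with a median of 0.33, and 5 other entries, with a median of 0.08. The middle class holds 6 Sm or LSm genes, with a median of 0.36, and 17 others, with a median of 0.07, and all 21 long entries are of other roles. By mean FPKM, the 16 entries under 5 had a median of 0.31, the 29 of 5 to 15 had 0.09 and the 12 over 15 had 0.01, against 0.09, -0.05 and -0.12 for all genes. Merged exons were up to 8.35 times as long as the annotated transcript with the longest coding sequence (*Lsm8*, 1.73 times at the median entry). FPKM would understate the per-transcript level of such genes where that transcript is the one expressed. Which transcripts were expressed was not measured here. Leaving out entries that share over 20% of their transcript with other genes or overlap one over more than 10% of their exon bases left 38 entries. Of these, 6 (15.8%) were called, where 22.5% of all genes tested were, and their median fold change was 0.07.

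**Figure D5:**
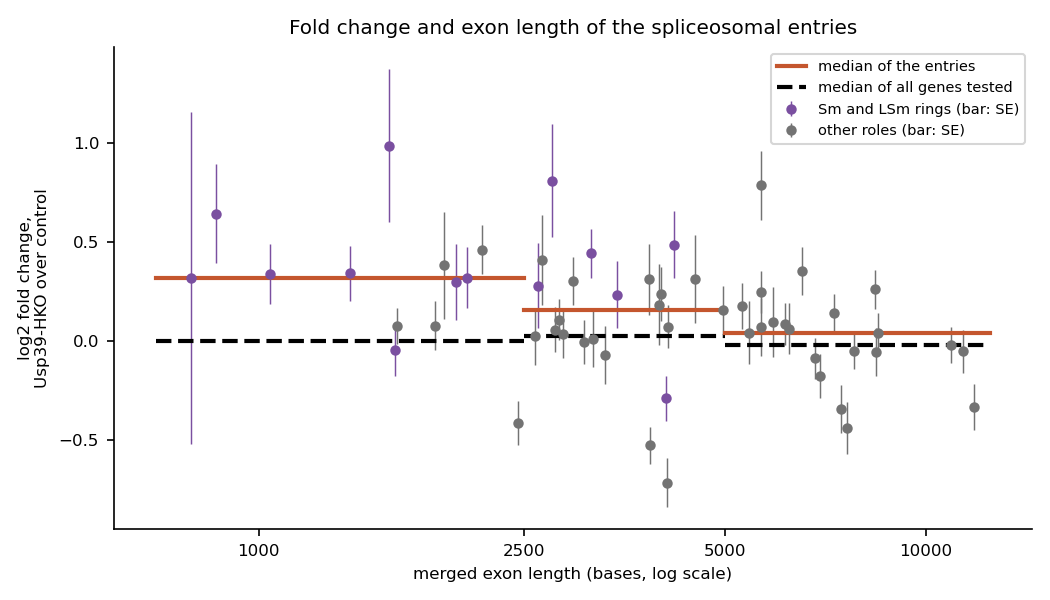
Log2 fold change (with SE) of the 57 entries against merged exon length on a log scale, with Sm and LSm genes in purple. The solid lines, medians of the entries per length class, step from 0.32 to 0.15 to 0.04, and the dashed lines for all genes tested stay between -0.02 and 0.03.

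A feature outside the expression values was searched in the promoters. RefSeq start sites (GRCm38.p6) gave sequences from 250 bases before to 50 bases after the start for 43 of the 56 genes. The letters CCGGAAG, the core that ETS factors bind, occurred on either strand in 21 of these 43 genes (48.8%), in 1922 of the 9614 genes tested that have a promoter and in 8.90% of all 32851 promoters. The letters GGGCGGG of SP1 and KLF factors occurred in 44.2% of the member genes and 50.7% of the genes tested, and CCAAT in 44.2% and 42.8%. Of the 5 called genes with a promoter in the table, the ETS letters stood in *Prpf3*, which was higher, and in *Dhx16* and *Prpf6*, which were lower, and not in *Lsm2* or *Snrnp70*. *Prpf3* has 2 start sites in the table, and the window of the other, upstream one holds no ETS match. These promoters are shown because they belong to the members with the lowest adjusted p-values. Capitals mark matches on either strand to the ETS, SP1 and KLF or CCAAT letters or to the E-box letters CACGTG, and a match is a description and not a binding site.
*Dhx16* promoter, chr17:35879528-35879827, plus strand: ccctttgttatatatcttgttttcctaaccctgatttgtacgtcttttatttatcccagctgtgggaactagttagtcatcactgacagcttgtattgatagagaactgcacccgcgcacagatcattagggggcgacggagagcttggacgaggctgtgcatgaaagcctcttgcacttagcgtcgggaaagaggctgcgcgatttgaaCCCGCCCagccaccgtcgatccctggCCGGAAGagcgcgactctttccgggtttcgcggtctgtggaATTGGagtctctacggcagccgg
*Prpf6* promoter, chr2:181601069-181601368, plus strand: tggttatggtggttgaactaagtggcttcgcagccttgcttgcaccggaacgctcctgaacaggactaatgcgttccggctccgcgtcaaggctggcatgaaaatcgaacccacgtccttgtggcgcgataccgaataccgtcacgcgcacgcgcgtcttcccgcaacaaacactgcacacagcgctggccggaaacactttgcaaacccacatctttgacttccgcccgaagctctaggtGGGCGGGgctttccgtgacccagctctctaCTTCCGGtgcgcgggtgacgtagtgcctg
*Prpf3* promoter, chr3:95855704-95856003, minus strand: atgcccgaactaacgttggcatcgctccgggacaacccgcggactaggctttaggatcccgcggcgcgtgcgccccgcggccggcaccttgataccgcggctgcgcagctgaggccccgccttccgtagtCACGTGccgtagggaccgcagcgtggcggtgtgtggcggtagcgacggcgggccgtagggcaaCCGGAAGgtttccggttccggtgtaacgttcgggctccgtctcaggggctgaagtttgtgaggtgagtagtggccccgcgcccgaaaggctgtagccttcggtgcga

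The other genes of the spliceosome were read from 6 lists. Of 88 genes tested, 7 (8.0%) were called, 5 higher and 2 lower, where 22.5% of all genes tested were. Their median log2 fold change was 0.04. Without control 4, 2 of the 88 (*Phf5a* and *Smndc1*) were called, both higher, where 14.2% of all genes were. Among other U1, U2 and A complex proteins, 2 of 19 were higher and 2 lower. *Phf5a*, the small subunit of SF3B next to Sf3b1, rose from 10.98 ± 0.65 FPKM (SD, n = 4 mice) to 17.99 ± 1.5 (SD, n = 4 mice), a log2 fold change of 0.48 (adjusted p = 0.00928). *Smndc1*, a Tudor-domain splicing factor, was at 0.44 (adjusted p = 0.0143). *Ddx46*, the helicase that opens U2 for the branch site, and *Htatsf1*, which U2 releases at this step, fell by 0.34 and 0.38 on the log2 scale (adjusted p = 0.0200 and 0.0204), and both were named because they were the other calls of the list. Without control 4 they were at -0.33 and -0.32 (adjusted p = 0.0621 and 0.0719), and *Phf5a* and *Smndc1* at 0.42 and 0.45 (adjusted p = 0.0358 and 0.0413). Neither the 21 other B and Bact complex proteins nor the 11 further Prp19-related proteins held a call. The lowest adjusted p-values there were 0.0574 for *Cdc40*, at -0.33, and 0.0826 for *Snu13*, at 0.30, and then 0.198 for *Rbm22* and 0.312 for *Ppie*.

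The last 3 lists held a single call each, all higher. *Snrnp25* of the minor spliceosome was at 0.79 (adjusted p = 0.0367, 1 of 10 genes), followed by *Zmat5* at -0.55 (adjusted p = 0.0883). *Smn1*, the SMN protein that loads Sm rings onto snRNAs, rose from 3.06 ± 0.47 FPKM (SD, n = 4 mice) to 5.15 ± 0.81 (SD, n = 4 mice), a log2 fold change of 0.51 (adjusted p = 0.0350, 1 of 19 snRNP assembly genes). *Gemin6*, its partner, was at 0.75 (adjusted p = 0.0626). *Rnps1* of the exon junction complex was at 0.35 (adjusted p = 0.0452, 1 of 8 genes), and *Magoh* at 0.32 (adjusted p = 0.0964). The 3 calls did not hold without control 4, where *Snrnp25* was at 0.80, *Smn1* at 0.49 and *Rnps1* at 0.38 (adjusted p = 0.0840, 0.0914 and 0.0748). Without control 2, *Snrnp25* and *Smn1* were at 0.74 and 0.45 (adjusted p = 0.0701 and 0.0700), and *Gemin6* and *Cdc40* passed at 1.05 and -0.41 (adjusted p = 0.0124 and 0.0201).

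The levels of marker mRNAs of other liver cells differed between genotypes. The 7 hepatocyte markers summed to 15290 to 17040 FPKM in controls and 13780 to 19040 in *Usp39*-HKO livers, and 1 of them was called lower. Macrophage markers summed to 229 to 286 FPKM in controls and 353 to 596 in *Usp39*-HKO livers, with 5 of 7 called higher. Stellate cell and fibroblast markers summed to 63.2 to 74.3 and 104 to 200, with 6 of 7 higher. Cholangiocyte markers summed to 3.20 to 3.72 and 4.45 to 22.7, with 3 of 3 tested higher, and lymphocyte markers to 5.08 to 6.27 and 6.81 to 9.29, with 1 of 4 tested higher. Endothelial markers summed to 80.7 to 91.5 and 81.6 to 85.0, with 2 of 5 lower. Erythroid markers summed to 167 to 336 and 62.7 to 146, with 3 of 3 tested lower. Neutrophil markers overlapped (21.8 to 48.3 and 14.2 to 85.4). No marker was at 0 counts in all 8 livers. The part of these cell types in the members' values was not tested.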

How the data were processed

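Per the labels and the study's methods, reads were trimmed with Trim Galore 0.6.1, aligned to mm10 with HISAT2 and counted per gene with featureCounts. The processing tools listed with the samples also include Picard, and what it was used for is not described here. The annotation release, strand setting and treatment of reads with several matches were not given in the sources used here. The deposited exon lengths of all 57 entries equalled merged exons of GENCODE vM21. The authors deposited raw counts per gene and mouse, the exon length (bases) and FPKM made from both. Their DESeq2 comparison columns (mean normalized signal, log2 fold change, standard error, Wald statistic, p-values and change call) were not used. Counts were tested in edgeR 4.0.16 (R 4.3.3) with TMM factors and genotype as the only term (common coefficient of variation between mice 0.179). The SE is the size of the fold change over the square root of its F statistic. DESeq2 1.42.0, limma 3.58.1, other scalings and filters and leaving out each mouse were alternatives. The tests were tested on simulated data first. Shared sequence came from BLAST+ 2.17.0+. Within a genotype, mice differed by more than counting allows (chi-square over its degrees of freedom 7.02 to 36.4), and errors are those between mice. Members and gene lists were chosen with earlier results of these data known. Every called member and, per role, the largest rise and fall are given in every mouse. Of each other list, the 2 genes with the lowest p-values are named.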

Additional observations from a re-analysis of the deposited data

Results flagged for a closer look

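In 114 groups of 4 mice (57 entries in each genotype), 9 FPKM values lay apart from the rest of their group, by a gap to the nearest mouse that exceeds Dixon's critical value at 95%. Chance flags about 1 in 20 groups. Control 2 gave 6 of the 9. It was high for *Lsm4* (26.4 FPKM, other controls 17.1 to 17.9), *Snrpb* (34.4, others 19.4 to 21.6), *Snrpd3* (8.76, others 6.01 to 6.46), *Snrpg* (7.52, others 1.94 to 2.45) and *U2af2* (17.4, others 14.0 to 14.6), and low for *Snrpa1* (3.53, others 5.21 to 5.33). Control 4 was high for *Ppih* (1.57 FPKM, others 0.861 to 0.959), and control 1 for *Prpf38b* (10.2, others 9.13 to 9.27). *Usp39*-HKO 1 was low for *Lsm3* (1.61 FPKM, others 2.30 to 2.40).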

How the results depend on the processing

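Against 7 entries called, limma on log2(FPKM + 1) called 22, library totals alone 25, upper quartile scaling 11 and limma voom with sample quality weights 13, and leaving out 1 mouse gave 3 to 13 (13 without control 2, 4 without *Usp39*-HKO 3, 4 without *Usp39*-HKO 4 and 3 without control 4), where 13.5% to 24.5% of all genes were called. The median log2 fold change of the entries moved from 0.10 to 0.29 in limma on log2(FPKM + 1), 0.33 with library totals alone and 0.16 with upper quartile scaling, and lay between 0.07 and 0.15 with 1 mouse left out. *Usp39* lost its call in limma on log2(FPKM + 1) (-0.16, adjusted p = 0.168) and with library totals alone (-0.18, adjusted p = 0.247), and lay between -0.45 and -0.35 with 1 mouse left out. Its adjusted p was 0.0615 without *Usp39*-HKO 4 and 0.0547 without control 4. Of the other spliceosome genes, 7 were called, against 22 in limma on log2(FPKM + 1), 22 with library totals alone, 4 without a filter and 11 with voom weights. Of all genes, these settings called 25.6%, 29.4%, 13.2% and 29.2%. With 1 mouse left out, 2 to 9 were called (2 without *Usp39*-HKO 3, 4 without *Usp39*-HKO 4, 4 without control 3 and 2 without control 4), where 13.5% to 24.5% of all genes were. Entries without overlap numbered 22 in deposited FPKM, 13 with TMM factors and 12 with median-ratio factors. Of uncalled members, *Lsm3* passed in 6 of 16 alternatives, *Snrpg* in 6 of 17 and *Snrpc* in 5 of 16. *Dhx38* and *Prpf19* passed in 2 of 17 each, and *Prpf38a* and *Txnl4a* in 1 of 16 each. Others, *Eftud2*, *Lsm8* and *Snrpa* among them, also passed in some. DESeq2 added *Lsm3* and *Snrpg* as higher and *Prpf8* as lower. *Dhx16* and *Prpf6* kept their call in all 17 alternatives and *Prpf3* in all 16 that held it, whereas *Sf3b4* lost it in 4, *Usp39* in 4, *Lsm2* in 7 and *Snrnp70* in 9. Signs turned under at least 1 alternative for 18 of the 57 entries, 0 of them called, 9 of them with library totals alone. Among the members given in every mouse these were *Sart1* (-0.01 without control 1, 0.22 without control 2 and 0.32 with library totals alone), *Prpf38b* (0.046 in limma, 0.061 with library totals), *Sf3b2* (0.13 and 0.15) and *Cdc5l* (0.14 and 0.18, 0.011 at a mean FPKM of at least 5, 0.017 without *Usp39*-HKO 3). The cause of these changes was not tested, except that scaling moves all genes together. No paired analysis was made. The controls were littermates, but which mice shared a litter was not given in the sources used here. With 4 mice per group, no entry with a fold change nearer 0 than that of *Usp39* was called.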
